A study of Bos taurus with 60 samples.

Results

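The dry period of 6 heat-stressed (HT) Holstein cows was followed between day 3 (D3) and day 7 (D7) after dry-off, the days on which the gland passes through active involution. The samples were chosen by their treatment label (HT), their time label (Day 3 or Day 7) and the subject identifier that ties both days to 1 cow. This gave 12 mammary biopsies of the 60 in the series, 6 at D3 and 6 at D7, and no sample of the cooled cows was used. All of these cows were multiparous, pregnant and dried off before the expected calving. Both groups were under the same treatment, which began at dry-off: shade alone, without the fans and soakers that cooled cows had. Day, sampled gland and days under heat therefore moved together, because each biopsy came from alternating glands of the udder and D7 followed 4 more days of heat. The question addressed was how the transcriptome of the involuting gland differed between these days in cows under heat stress.

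When milking stops, milk accumulates in the alveoli, synthesis of milk proteins and fat declines, and part of the secretory epithelium dies or is remodelled. In rodents this passes through an early reversible phase marked by LIF and STAT3 signalling and a later one of matrix breakdown, whereas in the pregnant dairy cow the alveoli persist and epithelial cells keep dividing, so that the tissue is renewed before the next lactation. Myoepithelial cells, which contract around the alveoli, capillaries, adipocytes and immune cells share the biopsy. Heat stress is known for inducing chaperones and for lowering mammary cell proliferation during the dry period.

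No locus passed the FDR threshold of 0.05 at D7 vs. D3 in these cows. Counts of reads per locus, assembled by the authors, were compared within each cow with edgeR's quasi-likelihood F-test, and the test covered the 13722 loci that reached 1 CPM (the count of a locus scaled to the size of its library) in 6 or more of these 12 samples. The number of differentially expressed genes (DEGs) was 0 (percent called 0%), and the smallest FDR was 0.654. An unadjusted p under 0.05 was found for 739 loci, which is 5.39% of those tested, and these divided into 364 higher (2.65%) and 375 lower (2.73%) at D7. Scaled to library size alone, the same test gave 213 higher and 365 lower. A looser rule, an unadjusted p up to 0.005 and a log2 fold change no smaller than 0.5 in size, gave 42 loci higher and 31 lower. The count of DEGs depended on the tool: DESeq2 called 83 loci (0.605%), and edgeR with tagwise dispersions called 101 (0.736%), of which 76 were called by both. Without cow 8713, 428 loci had an unadjusted p under 0.05, and without any other single cow the number was 543 to 1068. At the median locus the 95% interval of a log2 fold change reached 0.44 to either side. The plot of fold change against p shows the spread of all loci.

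**Figure D1:**
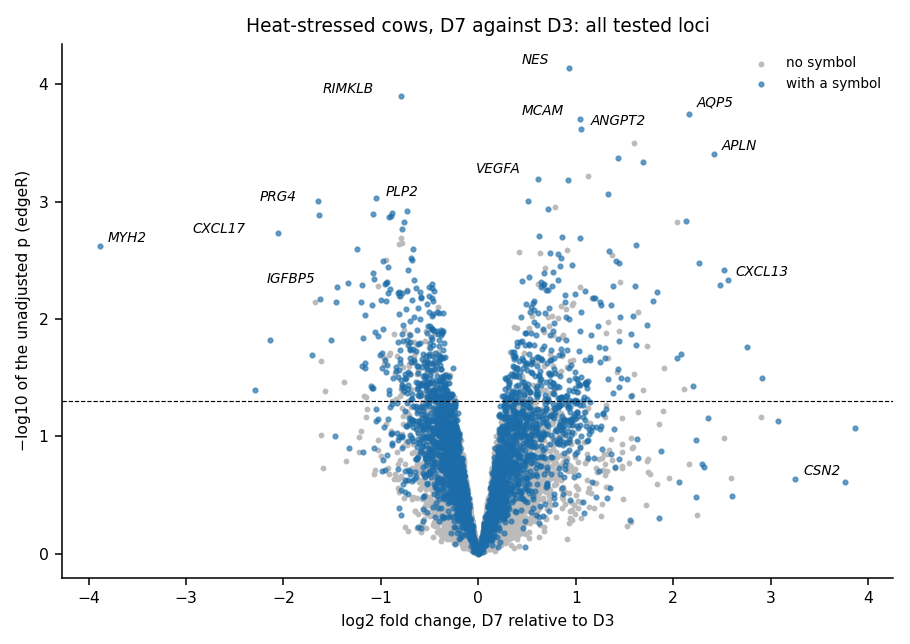
Each point is 1 of the 13722 tested loci, with its log2 fold change at D7 relative to D3 on the x axis and −log10 of the unadjusted edgeR p on the y axis. Blue points carry a gene symbol and grey ones do not, and the dashed line marks the 0.05 level. Loci lie above the line on both sides in like numbers, 364 to the right and 375 to the left.

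A gene symbol was at hand for 2904 of the tested loci. The symbols came from lists that the study ranked on all cows of this series, these 12 samples included, so a named locus was more likely to differ between days in the first place. Among loci with a symbol, 560 (19.3%) had an unadjusted p under 0.05, with 275 (9.47%) higher and 285 (9.81%) lower at D7, against 179 (1.65%) of the 10818 loci without one. A log2 fold change above 0 was found for 51.6% of all loci and 50.8% of those with a symbol, and one below 0 for 48.4% and 49.2%. Higher levels in at least 5 of 6 cows were found for 10.6% and 22.5%, and lower ones for 10.9% and 21.7%. Of the 2904 loci with a symbol, DESeq2 called 71 and edgeR with tagwise dispersions 85. Counts over gene lists below are read against these values for loci with a symbol and are not independent evidence of a direction.

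The samples were sequenced to like depth, with 21547253 to 23580941 counts at D3 and 22364881 to 26183990 at D7. The total count was higher at D7 in all 6 cows (exact sign-flip test over 64 sign changes, two-sided p = 0.03125, the smallest the design allows), and all levels are scaled by TMM factors. The biopsies expressed epithelial and myoepithelial markers on both days, with KRT19 at 476 to 2168 CPM at D3 and 506 to 1019 CPM at D7, and KRT5 and ACTA2 together at 544 to 2403 CPM and 603 to 1047 CPM. Markers fixed for T cells, B cells, macrophages, neutrophils, endothelium, blood and skin carried no symbol in the tables held, so the presence of these cells was not analysed here. A multidimensional scaling was made with the 500 loci that differed most between each pair of samples. Its first axis held 38.5% of the variance. On it the D3 samples of cows 8541 and 8713 (2.13 and 2.49) lay apart from the other 10, which ranged from -1.25 to 0.73.

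The milk protein loci set the cows apart. CSN1S1, CSN2 and LALBA, which encode 2 caseins and the milk whey protein alpha-lactalbumin, were the only milk protein loci with a symbol. Their joint share of the counts was taken as a measure of milk protein RNA, and secretion itself was not measured. At D3 the share was 0.0286% in cow 8513, 0.0373% in 8660, 0.203% in 8314, 0.849% in 8668, 3.66% in 8713 and 7.45% in 8541. At D7 it was 14.5% in cow 8513, 4.24% in 8660, 1.45% in 8314, 3.92% in 8668, 1.67% in 8713 and 0.00669% in 8541. The share was thus higher at D7 in the 4 cows with the lowest D3 values and lower in cows 8541 and 8713, which held the highest (exact sign-flip test on the log2 scale, two-sided p = 0.594). Cow 8541 went from the highest share at D3 to the lowest of all 12 samples. In deviation from the day means, its D7 sample correlated at -0.24 with its own D3 sample and at 0.44 and 0.46 with the D3 samples of cows 8513 and 8660. The D3 sample of cow 8513 correlated at 0.01 with its own D7 sample, and the D3 sample of cow 8541 correlated at 0.37 with the D7 sample of cow 8513. Whether samples of these cows were exchanged was not tested, no label was changed, and the values of single cows given for 8513 and 8541 rest on the labels. Counts over gene lists are given without single cows where these move them by over 1.5 times. For the milk protein loci, 0 of 3 were higher at an unadjusted p under 0.05, against 2 without cow 8541, 1 without cows 8513 and 8541 and 3 without cows 8541 and 8713.

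The listed genes of blood vessel growth were higher at D7, by their median, in every cow. Of 32 symbols listed for endothelium and angiogenesis, 11 loci were tested and none was a DEG; 9 had a log2 fold change above 0, with a median of 0.51 against 0.01 over all loci, and 5 were higher and 1 lower at an unadjusted p under 0.05. The single lower locus missed that level without cow 8314, 8660 or 8713. The median difference of the list in a cow ran from 0.35 in cow 8541 to 0.73 in cow 8713. In bulk tissue, more cells of a type and more RNA per cell cannot be told apart.

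APLN, which encodes apelin, a peptide made by the leading cells of vascular sprouts, stood at 1.67 to 7.69 CPM at D3 (median 3.79) and at 12.0 to 55.2 CPM at D7 (median 16.5). Every D7 sample lay above every D3 sample, and the log2 fold change was 2.42 ± 0.42 (SE, 95% interval 1.45 to 3.38, unadjusted p = 0.000392). VEGFA, the principal growth factor for endothelial cells, ranged from 49.03 to 62.4 CPM at D3 (median 58.0) and from 77.5 to 95.9 CPM at D7 (median 87.7). The days did not overlap for VEGFA either, and its log2 fold change was 0.62 ± 0.12 (unadjusted p = 0.000639). ANGPT2, a ligand of the TIE2 receptor that loosens vessels for remodelling, was at 14.9 to 30.5 CPM at D3 (median 19.3) and 23.6 to 60.1 CPM at D7 (median 46.5). It was higher at D7 in 6 of 6 cows although the days overlapped, with a log2 fold change of 1.05 ± 0.17 (unadjusted p = 0.000238). The VEGF receptor KDR was higher in 5 of 6 cows, and its interval of -0.11 to 0.87 held 0. Below 0 lay VEGFB, a further VEGF family ligand named here after its value was seen, with an interval of -0.77 to 0.12 that held 0, and EFNA1, an ephrin ligand whose reads are joined with those of SLC50A1, at a log2 fold change of -0.99 ± 0.34.

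**Figure D2:**
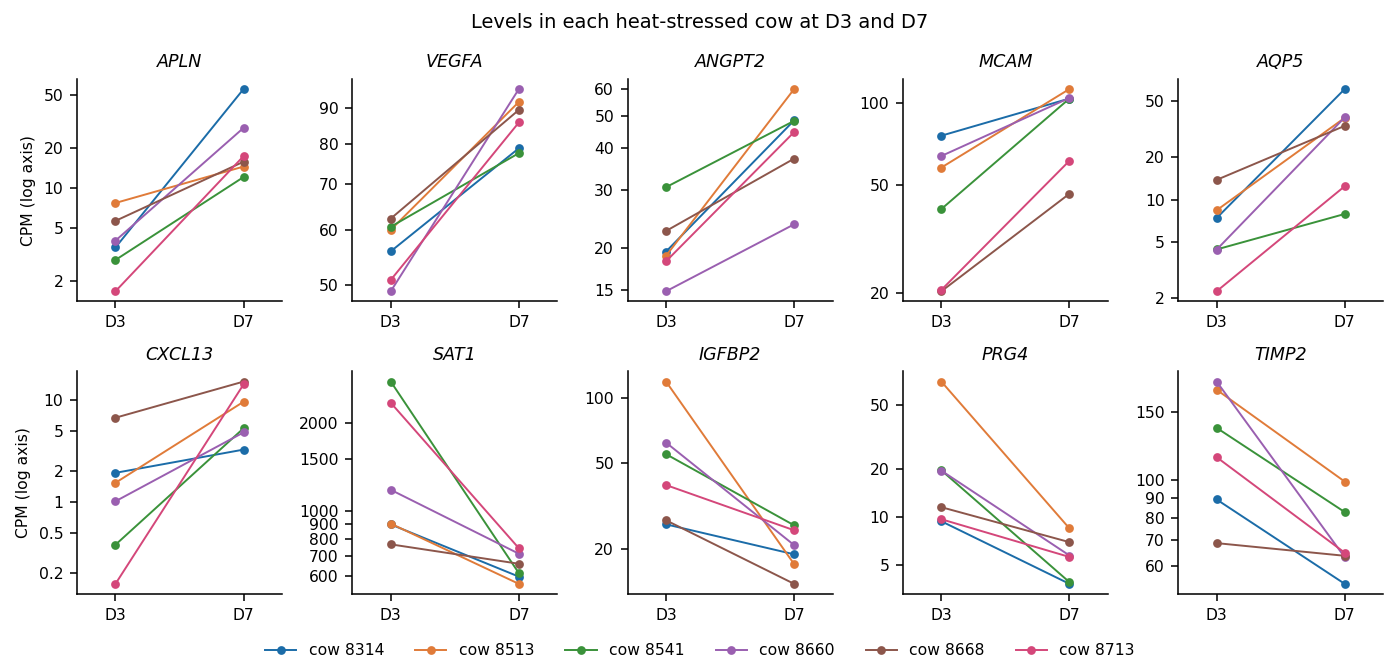
Levels in CPM on a log axis at D3 and D7 for 10 genes, with 1 line for each of the 6 heat-stressed cows. Every line climbs for APLN, VEGFA, ANGPT2, MCAM, AQP5 and CXCL13 and descends for SAT1, IGFBP2, PRG4 and TIMP2, and for APLN, VEGFA, SAT1, IGFBP2 and PRG4 no D7 point reaches the D3 range.

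Over all tested loci, 205 (1.49%) were higher and 215 (1.57%) lower at D7 in 6 of 6 cows, and among loci with a symbol 130 (4.48%) and 124 (4.27%). Both directions together made 420 of the 13722 loci, near the share of 0.03125 that random signs in 6 cows would give. A like direction in 6 of 6 cows is thus no evidence on its own of a difference between days. Scaled to library size alone, 114 of all loci were higher and 256 lower in 6 of 6 cows. The 10 with a symbol and the smallest p in each direction are described here, and all missed the threshold, with an FDR from 0.654 to 0.776. All 20 were called by DESeq2 and by edgeR with tagwise dispersions. Those fits used the same counts, and the 20 were picked by their p, so the calls are not independent support. Beside ANGPT2, APLN and VEGFA, the higher ones were NES, AQP5, MCAM, SEMA5B, LOC100300091, SVEP1 and SPRY4. NES encodes nestin, an intermediate filament of progenitor and newly formed vascular cells, and had the smallest p of all loci. Its level was 22.8 to 54.8 CPM at D3 (median 37.2) and 53.04 to 87.5 CPM at D7 (median 73.2), a log2 fold change of 0.93 ± 0.13 (unadjusted p = 7.27e-05). MCAM, an adhesion molecule of endothelium and pericytes, was at 20.2 to 75.7 CPM (median 49.2) and 46.3 to 112 CPM (median 104), with a log2 fold change of 1.04 ± 0.16. For both genes the lowest D7 samples overlapped the highest D3 samples.

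AQP5, a water channel of secretory epithelia, ranged from 2.25 to 13.8 CPM at D3 (median 5.93) and from 7.93 to 60.9 CPM at D7 (median 35.7). Its log2 fold change was 2.16 ± 0.34 (95% interval 1.39 to 2.93, unadjusted p = 0.000181). The differences did not follow the milk protein share in every cow. Of the cows with a lower share at D7, 8541 had the smallest difference (0.82) and 8713 one of 2.43. Cow 8668, whose share was higher, had one of 1.27. SPRY4, a feedback inhibitor of receptor tyrosine kinase signalling, went from a median of 9.99 CPM to one of 23.5 CPM (log2 fold change 1.33 ± 0.26). SVEP1, a large adhesion protein of the extracellular matrix, had medians of 38.4 and 82.6 CPM (0.92 ± 0.17 on the log2 scale). SEMA5B, a semaphorin guidance molecule, and LOC100300091 were low, with medians of 1.43 and 0.532 CPM at D3 and of 3.42 and 2.30 CPM at D7.

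The 10 lower loci were RIMKLB, PLP2, PRG4, ARRDC3, CUX2, GJB5, the joined locus KRT7/LOC787600, SCN9A, TIMP2 and CXCL17. RIMKLB, a ligase that forms the dipeptide N-acetylaspartylglutamate, was at 113 to 205 CPM at D3 (median 144) and 70.4 to 118.9 CPM at D7 (median 76.5), a log2 fold change of -0.80 ± 0.12 (unadjusted p = 0.000127). PRG4, the lubricating proteoglycan lubricin, was at 9.38 to 69.7 CPM at D3 (median 15.4) and 3.82 to 8.46 CPM at D7 (median 5.68), without overlap of the days (log2 fold change -1.65 ± 0.33). Its highest D3 value came from cow 8513 and the other 5 reached 19.5 CPM. TIMP2, an inhibitor of matrix metalloproteases, had medians of 126 and 64.2 CPM (-0.78 ± 0.17). CXCL17, a chemokine of mucosal surfaces, had medians of 6.97 and 2.63 CPM (-2.05 ± 0.46). The membrane protein PLP2 had medians of 126 and 61.2 CPM, the arrestin-domain protein ARRDC3 of 171 and 114, and the sodium channel SCN9A of 16.1 and 10.9. The homeobox factor CUX2 and the connexin GJB5 were low on both days, with D3 medians of 4.90 and 2.17 CPM.

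The D7 samples lay wholly above the D3 samples at 7 loci (0.051%) and wholly below at 10 (0.0729%) of all those tested, and 5 (0.172%) and 10 (0.344%) of the loci with a symbol were among them. These were singled out after their values were seen, and the share that chance would give was not computed. Above were APLN, VEGFA, the peptidase LVRN (medians 5.79 and 10.02 CPM), myocilin MYOC (13.8 and 25.9 CPM) and the homeobox factor LHX6 (6.68 and 13.1 CPM). Below were PRG4, IGFBP2, SAT1, TARSL2 (a threonyl-tRNA synthetase paralogue, with medians of 15.3 and 9.04 CPM) and 6 others, whose log2 fold changes were -0.52 to -0.26. SAT1, the enzyme that starts polyamine breakdown, stood at 769 to 2764 CPM at D3 (median 1043) and in the narrow range of 563.7 to 746 CPM at D7 (median 637). Its log2 fold change was -0.999 ± 0.280, and the largest differences were in cows 8541 and 8713 (-2.17 and -1.65). ODC1, which starts polyamine synthesis, went the other way in 5 of 6 cows (0.43 ± 0.14).

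Genes of cell division were higher at D7 in all cows but 1. Of 56 symbols listed for the cell cycle and mitosis, 40 loci were tested, none was a DEG, and all 40 had a log2 fold change above 0, with a median of 0.85. Of these, 12 had an unadjusted p under 0.05, all higher (30% of the list against 9.47% higher among loci with a symbol). The median difference of the list was 1.56 in cow 8541, 1.53 in 8314, 1.37 in 8713, 1.12 in 8660 and 0.18 in 8668, whereas in cow 8513 it was -0.98 and 2 of the 40 loci were higher. Cow 8513 was also the cow with the highest milk protein share at D7 (14.5%).

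MKI67, a marker of cycling cells, was at 28.8 to 63.3 CPM at D3 (median 45.9) and 23.1 to 163 CPM at D7 (median 82.0). The highest D3 and the lowest D7 value were both from cow 8513, and the interval of the log2 fold change held 0 (-0.15 to 1.72). CCNB1, the mitotic cyclin B1, had medians of 9.37 and 16.7 CPM with an interval of -0.16 to 2.19, and FOXM1, a transcription factor of mitotic genes, medians of 2.38 and 5.14 CPM with an interval of -0.10 to 1.87. The smallest p values of the list were those of GTSE1, a microtubule-binding protein of dividing cells (9.71 to 17.5 CPM at D3, 16.1 to 40.1 CPM at D7, log2 fold change 0.82 ± 0.21, unadjusted p = 0.00469), and the mitotic kinase NEK2 (1.10 ± 0.39, unadjusted p = 0.0224). Without cow 8513, 39 of these 40 loci reached an unadjusted p under 0.05 and none was a DEG, and without cows 8513 and 8541 it was 35. Without cow 8314, 8541 or 8713 it was 1, without cow 8660 it was 2, and scaled to library size alone it was 2. The inhibitor CDKN1B (p27) was lower in 5 of 6 cows (-0.33 ± 0.14), but the list of cell cycle inhibitors and p53 targets lay on both sides of 0. Of its 6 tested loci, 2 were above and 4 below 0, with 1 higher and 2 lower at an unadjusted p under 0.05. The higher count was 0 without cow 8314, 8541, 8660 or 8713 and scaled to library size alone. The lower count was 1 without cow 8314, 8541 or 8668 and 0 without cow 8660 or 8713.

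**Figure D3:**
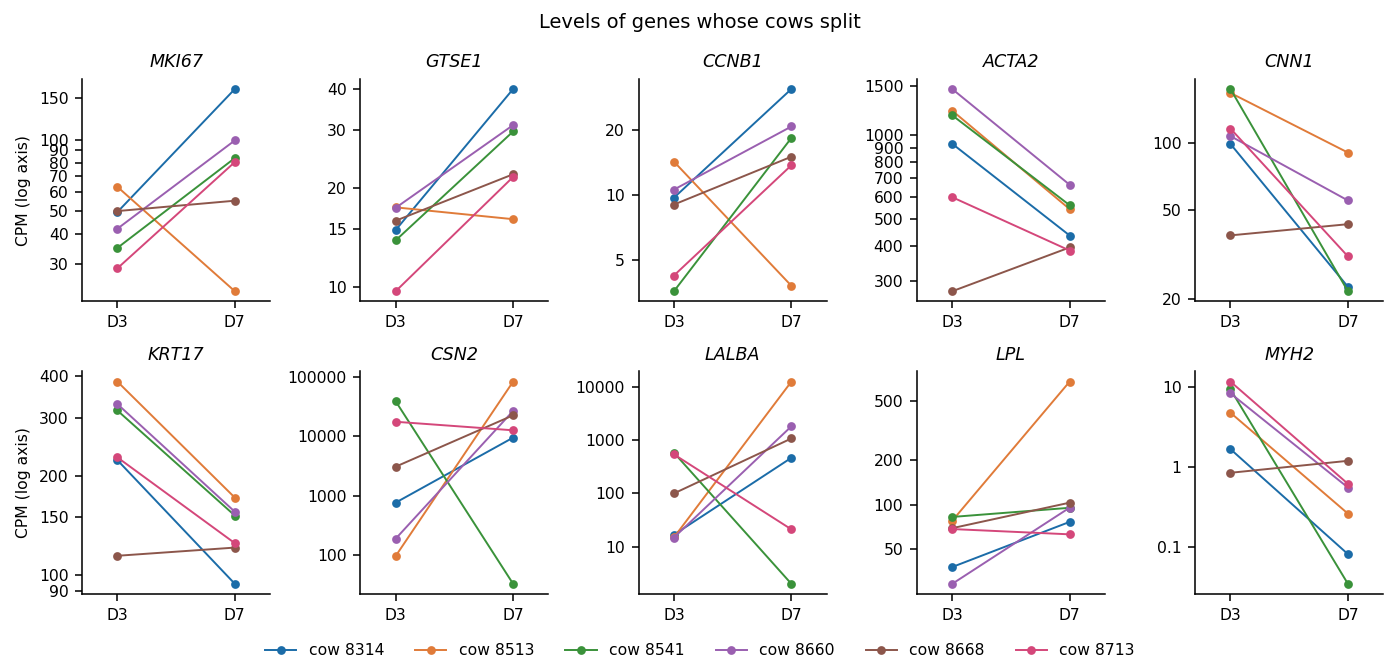
Levels in CPM on a log axis at D3 and D7 for 10 genes, with 1 line for each of the 6 cows. Cow 8513 alone descends for MKI67, GTSE1 and CCNB1, cow 8668 alone climbs for ACTA2, CNN1, KRT17 and MYH2 from a D3 level that is the lowest of the cows, and cows 8541 and 8713 descend for CSN2 and LALBA.

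Genes of the contractile apparatus were lower at D7 in all cows but another one. Of the 17 tested loci listed for myoepithelial and smooth muscle contraction, 16 had a log2 fold change below 0, the median was -0.72, and 11 were lower and 1 higher at an unadjusted p under 0.05, with 0 DEGs by edgeR, 4 by DESeq2 and 5 with tagwise dispersions. The median difference lay between -1.07 and -0.61 in 5 cows and was 0.17 in cow 8668. ACTA2, the smooth muscle actin of myoepithelial cells, was at 275 to 1465 CPM at D3 (median 1055) and 385 to 663 CPM at D7 (median 489), a log2 fold change of -0.78 ± 0.25 (unadjusted p = 0.0134). The lowest D3 value was that of cow 8668, which was the only cow with a higher D7 level. CNN1, the actin-binding calponin of smooth muscle, had medians of 111 and 37.1 CPM (-1.45 ± 0.39), and the basal keratin KRT17 of 271 and 138 CPM (-0.89 ± 0.19). KCNMB1, a subunit of the calcium-activated potassium channel of smooth muscle, and the basal keratin KRT5 were lower in 6 of 6 cows (-0.98 ± 0.24 and -0.80 ± 0.22). FILIP1, a filamin-binding protein, was the locus that was higher (0.64 ± 0.17, in 6 of 6 cows).

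MYH2, a myosin heavy chain of skeletal muscle, was lower in the same cows. It was at 0.846 to 11.9 CPM at D3 (median 6.63) and 0.0340 to 1.20 CPM at D7 (median 0.406), lower in all cows but 8668 (log2 fold change -3.88 ± 0.90). Of the 26 symbols listed for skeletal muscle it was the only one tested, and of 5 defining markers only MYH2 and MYH7 could be paired with a locus, at a summed level of 1.88 to 12.0 CPM at D3 and 0.779 to 1.84 CPM at D7. Whether muscle in the biopsy had a part in the contractile genes was not tested.

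General genes of the actin cytoskeleton followed the same cows with smaller differences. All 31 tested loci had a log2 fold change below 0 (median -0.32), 8 of them at an unadjusted p under 0.05, and the median difference was -0.81 to -0.25 in 5 cows and 0.23 in cow 8668. The actin-severing factor DSTN (191 to 498 CPM at D3, 130.99 to 225 CPM at D7) had a log2 fold change of -0.82 ± 0.22, and the actin-recycling protein CAP1 one of -0.59 ± 0.16. For RHOA, the small GTPase that drives actomyosin tension, the level was 446 to 848 CPM at D3 and 368 to 566 CPM at D7 (-0.40 ± 0.14, unadjusted p = 0.0220). ACTG1, cytoplasmic actin, whose locus is joined with MIR3533, had an interval that held 0 (-0.90 to 0.22). Without cow 8668, 13 of these 31 loci reached an unadjusted p under 0.05, and without cow 8513 or 8713 it was 5.

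Epithelial loci divided. Of 11 tested loci of the luminal epithelium, 3 were higher and 4 lower at an unadjusted p under 0.05, and DESeq2 called 6 of them. Beside AQP5, FUT2, the enzyme that adds the terminal fucose of secretor glycans, was higher in 6 of 6 cows, from a median of 0.388 CPM to one of 2.86 CPM (2.48 ± 0.66). The simple-epithelial keratin KRT7, whose reads are joined with those of LOC787600, stood at 286 to 1059 CPM at D3 and 231 to 466 CPM at D7 and was lower in 6 of 6 cows (-0.92 ± 0.19). ERBB3, a receptor for neuregulins, was at 319 to 1169 CPM at D3 (median 782) and 264 to 372 CPM at D7 (median 326), lower in all cows but 8668 (-1.08 ± 0.27). NRG2, a neuregulin ligand, was higher in 5 of 6 cows from a low level (0.955 and 4.47 CPM, 1.73 ± 0.53). All 13 loci of tight and adherens junctions were below 0 (median -0.34), 2 of them at an unadjusted p under 0.05: the polarity protein PARD3 (-0.36 ± 0.12) and the claudin CLDN3 (-0.88 ± 0.34), both lower in 6 of 6 cows. This share of the list, 15.4%, was all on the lower side, against 9.81% lower among loci with a symbol and 19.3% in both directions. The count was 7 without cow 8668, 1 without cow 8541 or 8713, 0 without cows 8541 and 8713 or 8513 and 8541, and 5 scaled to library size alone.

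Genes of milk synthesis went in opposite directions in different cows. CSN2, beta-casein, ranged from 95.3 to 39046 CPM at D3 (median 1915) and from 32.4 to 83708 CPM at D7 (median 17604). Its difference was 9.78 in cow 8513 and -10.2 in cow 8541 on the log2 scale, and the fitted change of 3.25 ± 2.51 had an interval of -2.52 to 9.02. LALBA, the subunit that turns galactosyltransferase into lactose synthase, had medians of 58.4 and 773 CPM and an interval of -3.18 to 10.70. Both were higher in 4 cows and lower in cows 8541 and 8713. Of 24 tested loci of milk fat synthesis and secretion, 17 were above 0 (median 0.49) and 3 were higher at an unadjusted p under 0.05. These were LPL, which frees fatty acids from circulating lipoproteins (1.05 ± 0.41), the desaturase FADS1 (0.74 ± 0.29) and GPAM, which starts triglyceride assembly (107 to 531 CPM at D3, 151 to 1269 CPM at D7, 1.44 ± 0.58). The list's median difference was 0.75 to 1.72 in the 4 cows with a higher milk protein share at D7, -1.42 in cow 8541 and -0.20 in cow 8713, and without these last cows 14 of the 24 loci were higher at an unadjusted p under 0.05. With single cows left out, the count was 13 without cow 8541, 1 without cow 8513 or 8713 and 0 without cow 8314 or 8660.

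Among 16 tested loci for the supply of amino acids, glucose and lactose, 3 were higher and 1 lower at an unadjusted p under 0.05, and without cow 8541 the higher count was 7. The lower count was 0 without cow 8314, 8541, 8660 or 8713. SLC1A5, a glutamine carrier, was at 19.1 to 39.2 CPM at D3 and 27.9 to 60.7 CPM at D7 (0.63 ± 0.14), and PSAT1, an enzyme of serine synthesis, at 25.0 to 39.99 and 37.8 to 71.1 CPM (0.67 ± 0.18), both higher in 6 of 6 cows, cows 8541 and 8713 included. PHGDH, the first enzyme of the serine pathway, was higher in 5 cows (0.996 ± 0.272), and SLC3A2, the heavy chain of amino acid exchangers, was lower in 4 (-0.61 ± 0.26). Of 4 tested loci of prolactin and STAT5 signalling, the feedback inhibitors CISH (0.47 ± 0.19) and SOCS1 (0.77 ± 0.32) were higher in 5 of 6 cows at an unadjusted p under 0.05. Neither was past that level without cow 8314, 8660 or 8713, and 1 was without cow 8513, 8541 or 8668 and when scaled to library size alone. In the adipocyte list, 3 of 6 loci were higher at an unadjusted p under 0.05, among them ADIPOQ, adiponectin, with medians of 8.05 and 19.8 CPM (1.39 ± 0.58) and the adipogenic receptor PPARG (0.51 ± 0.20). The adipocyte locus with the smallest unadjusted edgeR p (0.0315) was also counted in the milk fat list. None of the 6 adipocyte loci remained at that level without cow 8660, and 1 did without cow 8314 or 8513.

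**Figure D4:**
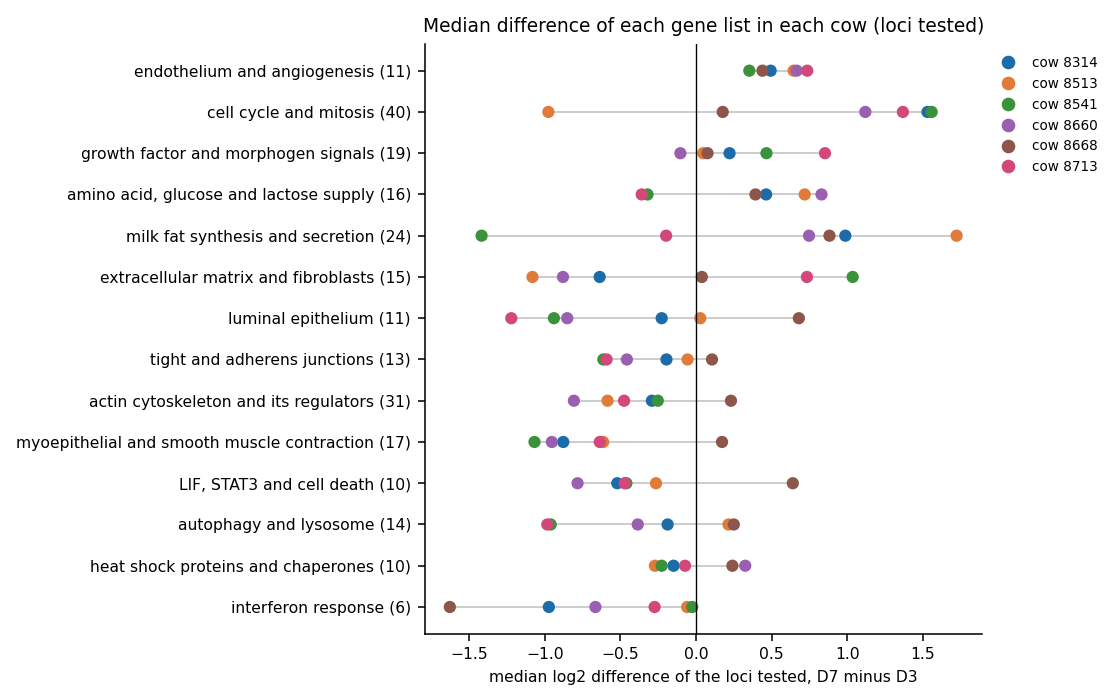
Median log2 difference, D7 minus D3, of the tested loci of 14 gene lists (the number of loci in parentheses), with 1 point for each of the 6 cows. The endothelium and angiogenesis list lies above 0 and the interferon response list below 0 in every cow, the cell cycle list in all but cow 8513, the contractile and actin lists lie below 0 in all but cow 8668, and milk fat lies below 0 in cows 8541 and 8713.

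Chemokine and cytokine loci lay on both sides of 0. Of 7 tested chemokine and cytokine loci, 2 were higher and 2 lower at an unadjusted p under 0.05, and DESeq2 called all 4. CXCL13, which attracts B cells, was at 0.157 to 6.69 CPM at D3 (median 1.28) and 3.26 to 15.1 CPM at D7 (median 7.44), higher in 6 of 6 cows by 0.73 to 5.88 (2.56 ± 0.67, unadjusted p = 0.00467). CXCL12, a chemokine of stromal cells, was at 179 to 472 CPM at D3 and 448 to 672 CPM at D7 and was also higher in every cow (0.85 ± 0.20). CXCL16, like CXCL17 above, was lower (-0.67 ± 0.16, in 5 of 6 cows). Of the B and plasma cell list 1 locus was tested, DERL3, an endoplasmic reticulum protein abundant in plasma cells (0.47 ± 0.21), of the T and NK cell list 1, the kinase ZAP70 (0.16 ± 0.19), and of macrophages and dendritic cells 2, AIF1 and MSR1, all with intervals that held 0. No locus of the neutrophil list was tested.

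In the IGF axis, 3 of 7 tested loci were lower at an unadjusted p under 0.05 and 0 were higher. Of the 7, 5 lay below 0 and 2 above it, the highest at a log2 fold change of 0.96. Without cow 8513 or 8668, 1 was higher at that level, and 2 were with DESeq2 or tagwise dispersions. Scaled over all 30 HT samples, IGF1 had medians of 68.0 CPM at D3 (19.3 to 187) and 108 CPM at D7 (95.3 to 144). IGFBP2, a binding protein that holds IGF, was at 26.1 to 119.1 CPM at D3 (median 47.3) and 13.9 to 25.8 CPM at D7 (median 19.9), with no overlap (-1.25 ± 0.29). IGFBP5, a binding protein known from involution as an inhibitor of IGF survival signals, was at 135 to 330.1 CPM at D3 (median 273) and 55.3 to 166 CPM at D7 (median 99.3). It was lower in all cows but 8314 (-1.33 ± 0.35, unadjusted p = 0.00491). The insulin receptor INSR had a log2 fold change of -0.48 ± 0.16. Among 19 tested growth factor and morphogen loci, 6 were higher and 6 lower, with the FGF receptor FGFR4 (1.20 ± 0.33, in 6 of 6 cows) and the ephrin receptor EPHB3 (0.57 ± 0.17) on the higher side and EGFR, the receptor for epidermal growth factor (-0.53 ± 0.21), on the lower. The 6 lower ones rested on single cows, with 2 left without cow 8314, 3 without 8541, 0 without 8660 and 1 without 8713, and the 6 higher ones became 10 without cow 8513. In the IGF axis, 5 loci were lower without cow 8668.

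Matrix loci divided evenly, with 5 higher and 5 lower of 15 tested at an unadjusted p under 0.05. The lower count was 3 without cow 8660, and the higher count was 3 scaled to library size alone. OGN, a small leucine-rich proteoglycan of connective tissue, was at 39.1 to 181 CPM at D3 and 111 to 193 CPM at D7 (1.34 ± 0.32, in 5 of 6 cows), and the fibril-associated collagen COL14A1 was higher in 6 of 6 (0.76 ± 0.19). PDGFA, a growth factor for fibroblasts, was lower in 6 of 6 (-0.69 ± 0.17). For FN1, fibronectin, the differences ranged from -2.08 in 8513 to 1.45 in 8713.

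Genes of LIF and STAT3 signalling, cell death, autophagy and lysosomes lay mostly below 0. LIF, the cytokine that starts STAT3 signalling in involution, was at 1.25 to 19.5 CPM at D3 (median 4.82) and 1.05 to 6.35 CPM at D7 (median 3.01). It was lower in 5 of 6 cows and 2.27 higher on the log2 scale in cow 8668, and its interval was -2.28 to 0.40. STAT3 had an interval of -0.65 to 0.17, and of 10 tested loci of this list 1 was lower at an unadjusted p under 0.05, the interleukin 6 receptor IL6R (-0.31 ± 0.13, in 6 of 6 cows). The count for this list was 5 without cow 8668 and 0 without cow 8513, 8660 or 8713. Of 14 autophagy and lysosome loci, 13 were below 0 (median -0.34) and none had an unadjusted p under 0.05, whereas 6 did without cow 8513, 4 without cow 8668 and 6 when scaled to library size alone, all lower.

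The chaperones, which respond to heat, lay on both sides of 0. Of 37 symbols listed, 10 loci were tested, 5 lay above and 5 below 0, the median was 0.06, and 1 had an unadjusted p under 0.05. This was CRYAB, the small heat shock protein alpha-B-crystallin, at 69.4 to 297 CPM at D3 and 48.4 to 101 CPM at D7, lower in all cows but 8668 (-0.80 ± 0.27). HSPB1, a further small heat shock protein, had an interval of -0.91 to 0.06, and DNAJA1, a partner of HSP70, one of -0.05 to 0.65. The lower count was 0 without cow 8660 and 2 without cow 8513, 8541, 8668 or 8713, and loci higher at that level numbered 2 without cow 8513 and 1 without cow 8541. Of the 6 tested interferon response loci, all were below 0 (median -0.52) and 2 were lower in 6 of 6 cows, ISG15, a ubiquitin-like protein induced by interferon (medians 9.71 and 4.17 CPM, -1.16 ± 0.42), and IRF7, whose reads are joined with those of CDHR5 (-0.47 ± 0.15). The list's median difference was below 0 in each of the 6 cows, from -1.63 in cow 8668 to -0.02 in cow 8541. At an unadjusted p under 0.05 there were 2 lower loci, 1 without cow 8314 and 3 without cow 8513 or 8541. Of 7 tested loci each for ribosome and translation and for mitochondrial respiration, 0 and 1 had an unadjusted p under 0.05, with 1 and 0 without cow 8660 and, for respiration, 2 without cow 8668 and 0 without cow 8314, 8541 or 8713.

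On the other sampling days of the same cows, scaled over all 30 HT samples, the levels at D3 can be set beside those of late lactation and of later involution. The D3 samples serve in both steps, and the values are given side by side without a test. At D-3, before dry-off and before heat stress began, the median of APLN was 20.7 CPM, against 3.62 (D3), 15.9 (D7), 9.56 (D14) and 17.3 (D25). SPRY4 had medians of 25.0, 9.61, 22.5, 22.1 and 23.999 CPM on these days, with a D3 maximum (15.5) below the D-3 minimum (17.4). SAT1 had medians of 594, 1000.2, 607, 645 and 668 CPM, and IGFBP5 of 98.3, 261, 95.4, 118 and 74.5 CPM. The D7 medians of both lay closer to those of late lactation than to those of D3. ERBB3 went likewise from 298 through 749 to 314 CPM. MKI67 continued past its D7 median of 79.3 CPM to 115 CPM at D14 and stood at 85.0 CPM at D25, and CNN1 continued downwards, from 35.7 CPM at D7 to 24.7 and 17.5 CPM.

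**Figure D5:**
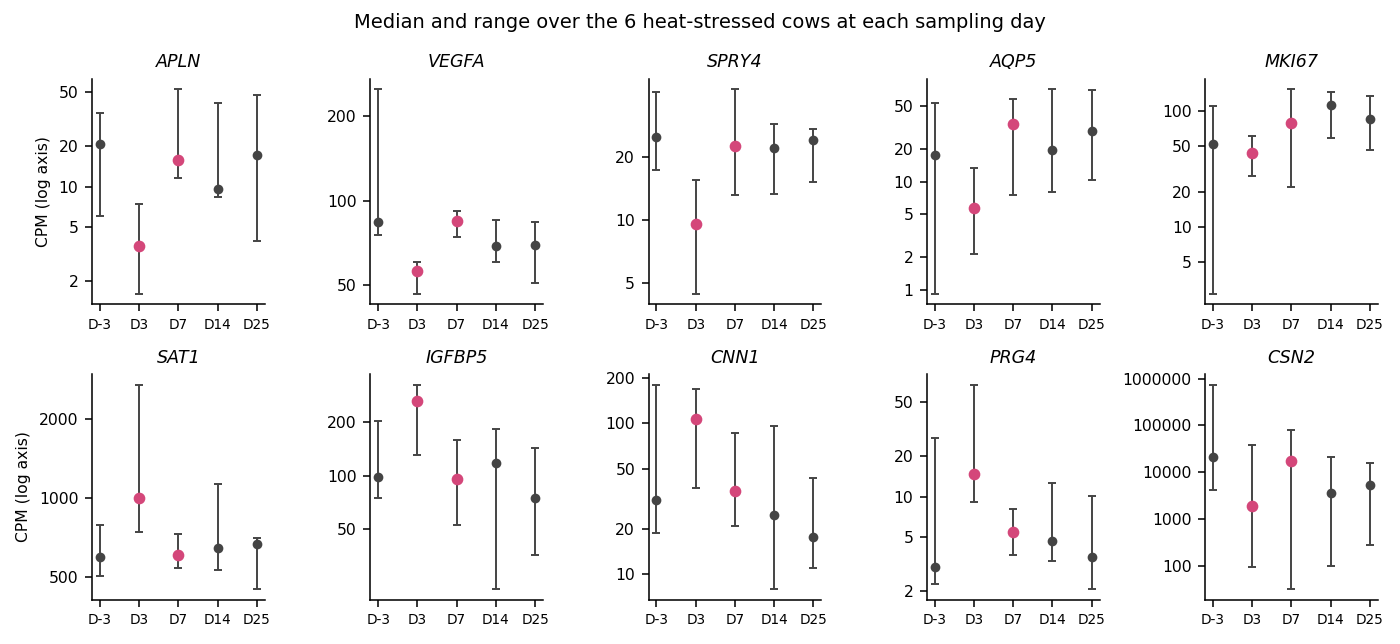
Median (points) and range (bars) of the level in CPM, on a log axis, over the 6 heat-stressed cows on the 5 sampling days, counted from dry-off (D-3 to D25), for 10 genes, with D3 and D7 in pink. For APLN, VEGFA, SPRY4, AQP5, MKI67 and CSN2 the D3 median is the lowest of the 5 days, and for SAT1, IGFBP5, CNN1 and PRG4 it is the highest.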

How the data were processed

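Mammary biopsies of the 6 HT cows at D3 and D7 were analysed. Total RNA was poly(A)-selected, libraries were made with a kit that does not mark the strand, and single reads were sequenced on a NextSeq 500. Per the labels, the authors used FastQC, Trim Galore 0.4.1, TopHat2 2.0.13, Cufflinks 2.2.1 and HTSeq. The genome build is UMD3.1 in the submitters' processing notes and bosTau7 in the paper's methods, and no coordinates are given here. The deposited values are raw counts of uniquely mapped reads per assembled locus, and no normalization was applied by the authors. Each table lists 26073 entries for 25223 loci, since 742 loci join several ENSEMBL genes and repeat their count. Each locus entered once, and reads of joined, overlapping or antisense genes could not be divided.

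Loci that reached 1 CPM in 6 or more of these 12 samples were tested with edgeR 4.0.16 (R 4.3.3): TMM factors, the cow as a block, the day as the effect, 5 residual degrees of freedom, the quasi-likelihood F-test with trended dispersions, and Benjamini-Hochberg FDR. The pairing comes from the subject identifier, that is, the same animal. Correlations of same-cow deviations were -0.24 to 0.45. For cows 8513, 8541, 8660 and 8713, the D3 sample correlated more with another cow's D7 sample than with its own D7 sample. For cow 8660 the values were 0.46 and 0.19, and for cow 8713 they were 0.48 and 0.45. Levels are CPM after TMM scaling, and per-cow differences are log2 CPM with a prior count of 2. Single values per cow were tested by two-sided exact sign-flip tests. Depth per sample is given above. Intervals are 95% confidence intervals of the fitted change, and differences of single cows can lie outside them. The SE of a log2 fold change was its size divided by the square root of the F statistic. Symbols for 3028 loci came from the part of the study's supplementary lists held here. Columns with the authors' own comparisons were not used.

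Named genes were the 10 a direction with the smallest p among loci that went the same way in 6 of 6 cows (the fallback where no locus passed the FDR), the 5 a direction with the smallest p, up to 5 of each of 32 gene lists (898 symbols), and a set taken from the study's subject. Members and lists were chosen with earlier results of these data known. No locus of the blood and skin list or of the qRT-PCR reference list was tested. Code was checked on simulated counts. Alternatives were other normalizations, filters, dispersions, DESeq2 1.42.0, no cow block, all 30 HT samples, and cows left out singly or in pairs. The HT fits with 8513 and 8541 left out together, with all HT samples and no block, and with the milk protein share as a covariate were added after the data were seen. A planned search of promoter motifs was not run, since no promoter sequence was at hand. Python 3.11.15, numpy 2.4.6, pandas 2.3.3, scipy 1.17.1 and matplotlib 3.10.9 were used for tables and plots.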

Additional observations from a re-analysis of the deposited data

Results flagged for a closer look

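Of 198 sets of 6 samples (99 measures on each of 2 days) checked for a sample far from the others, 11 held one. Chance gives 1 in 20 for unrelated measures, but these were chosen from the data and CSN2 is part of the milk protein share. The count can therefore not be judged by that rate. All of those at D7 fell in cows 8513 and 8541. At D3, SEMA5B in cow 8713 was at 0.261 CPM with the other cows at 1.25 to 2.19, LHX6 in the same cow was at 1.51 CPM with the others at 4.93 to 9.06, PRG4 in cow 8513 was at 69.7 CPM with the others at 9.38 to 19.5, and LOC100300091 in cow 8668 was at 1.49 CPM with the others at 0.41 to 0.591. At D7, cow 8513 stood apart for LPL (681 CPM, others 63.1 to 103), MYOC (82.4 CPM, others 18.4 to 30.4) and ODC1 (49.1 CPM, others 84.3 to 104.8). Cow 8541 stood apart at D7 for CSN2 (32.4 CPM, others 9500.2 to 83708), for its milk protein share (0.00669%, others 1.45% to 14.5%), for its total count (26183990, others 22364881 to 23190985) and for DERL3 (22.2 CPM, others 10.8 to 14.1). The cause of these values was not tested.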

How the results depend on the processing

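The count of 0 DEGs was the same with RLE factors, library size alone, TMM without milk protein loci, the newer quasi-likelihood method, robust moderation, no filter, a filter at 5 CPM, all 30 HT samples with and without the block, each cow left out (0 to 0), cows 8541 and 8713 or 8513 and 8541 left out together and the milk protein share as a covariate. DESeq2 gave 83 (45 higher, 38 lower), tagwise dispersions 101 (56 higher, 45 lower), and the looser rule (p up to 0.005, log2 fold change no smaller than 0.5 in size) gave 73. Loci at an unadjusted p under 0.05, 739 in the main test, were 1151 with tagwise dispersions, 1231 with all 30 HT samples, 1310 without cows 8541 and 8713, 1695 with the milk protein share as a covariate, and 428 to 1068 with single cows left out. Without the replicate block, that is without the pairing by cow, the counts were 0 DEGs and 736. With library size alone, 114 loci were higher and 256 lower in 6 of 6 cows. Of the 97 genes followed, 95 kept the sign of their log2 fold change in each of the 21 alternatives in which they passed the filter. The exceptions were CSN1S1, -0.80 with the milk protein share, of which it is a part, as a covariate, and ZAP70, -0.12 without cows 8541 and 8713. The causes were not tested. The intervals rest on 6 cows and 1 biopsy per cow and day, and loci without a symbol could not be placed in a list.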

Other observations

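DESeq2 called loci outside the gene lists, and those given here were chosen from its calls after their values were seen. MFSD2A, a carrier of lysophospholipids known from the endothelium of the blood-brain barrier, had a mean of 2.24 CPM at D3 and 16.8 CPM at D7 and was higher in 6 of 6 cows (DESeq2 FDR 0.00109). SLC12A2, the sodium, potassium and chloride cotransporter of secretory epithelia, had means of 194 and 466 CPM and was higher in 5 of 6 cows (DESeq2 FDR 0.0020). NID1, nidogen of basement membranes, had means of 92.7 and 153 CPM (DESeq2 FDR 0.00711), and ALDH1A1, a retinaldehyde dehydrogenase, means of 115 and 212 CPM (DESeq2 FDR 0.00921), both higher in 6 of 6 cows. ETV5, a transcription factor downstream of FGF signalling, had means of 20.2 and 38.3 CPM (DESeq2 FDR 0.0146), also in 6 of 6 cows. SERPINA1, the inhibitor of neutrophil elastase, had means of 19.3 and 69.9 CPM and was higher in 5 of 6 (DESeq2 FDR 0.00821). None of these passed the edgeR threshold, where their FDR was 0.765 to 0.776.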
